A study of Mus musculus with 64 samples.

Results

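Megakaryocyte-erythroid progenitors (MEP) were set against stem and myeloid progenitors (SMP) sorted from the spleens of the same 3 scat mice in crisis. The comparison holds 6 of the 64 RNA sequencing libraries of the series, chosen by state, organ and sorted population and not by any measured value, and it was made across all genes. The crisis mice were scat/scat homozygotes of the strain CbyJ.Cby-Rasa3(scat)/Llp, aged 23 days (mouse 1), 28 days (mouse 2) and 26 days (mouse 3), and each gave 1 MEP and 1 SMP library. Young wild-type (WT) mice were +/+ on the same strain background, aged 23, 25 or 28 days. Their 3 spleen MEP and 3 spleen SMP libraries came from different animals, so the WT contrast is not paired. Bone marrow MEP and SMP of the same 3 crisis mice were the other comparison. SMP were gated as negative for lineage markers and Sca-1, positive for Kit and CD34 and low for CD16/32. Mice of BALB background carry little Sca-1 on their surface, so this gate holds stem cells together with common myeloid progenitors. MEP were isolated by another published method, whose gate the labels do not spell out.

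MEP are bipotent precursors that give rise to red cells and megakaryocytes, the cells that shed platelets. The cells of the SMP gate lie upstream of them and also lead to granulocytes and macrophages. As cells pass from the multipotent to the erythroid state they shut off CD34, GATA2 and PU.1 and switch on GATA1, KLF1, the transferrin receptor and the enzymes of heme synthesis. In the mouse the spleen is the main site of emergency red cell production. Rasa3, the gene mutated in scat, encodes a protein that speeds GTP hydrolysis by the small GTPases Ras and Rap1 and so returns them to their inactive form. Homozygotes alternate between crises of severe anemia with low platelets and partial remissions.

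SMP of mouse 2 stood apart from the other SMP libraries, towards MEP. Values are the authors' normalised counts, divided by each library's median ratio over genes (rescaled counts). Over all tested genes the median absolute log2 difference between MEP and SMP of 1 mouse was 0.602 in mouse 1, 0.297 in mouse 2 and 0.455 in mouse 3. Pairs of MEP libraries differed by 0.263 to 0.322. SMP of mice 1 and 3 differed by 0.305, within that range, and SMP of mouse 2 differed from them by 0.484 and 0.439. By this median MEP and SMP of mouse 2 were as near as MEP libraries of different mice, but 19.0% of genes were at least 2-fold apart, against 13.4% to 16.4% between MEP libraries, and the Pearson r across genes was 0.945, against 0.969 to 0.975. The first principal component held 75.6% of the variance and separated the populations, with scores of 103.8, 94.58 and 82.74 in MEP of mice 1, 2 and 3 and of -137.5, -41.07 and -102.6 in SMP. The 6 libraries held 36540000 to 66920000 normalised counts and 16413 to 18318 genes above 0, and SMP of mouse 2 had the lowest total.

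A scale set by WT spleen shows where each crisis library lay. Every WT MEP library was at least 4-fold above every WT SMP library for 218 genes (MEP-high), and at least 4-fold below for 1214 genes (SMP-high). WT values chose these genes, so their levels are a description without a test. MEP of crisis spleen had the MEP-high genes at a median of 88.8%, 83.5% and 76.9% of the WT MEP level in mice 1, 2 and 3, and the SMP-high genes at 1.59%, 2.2% and 2.5% of the WT SMP level. SMP of crisis spleen had the MEP-high genes at 19.7%, 54% and 32.3% of the WT MEP level and the SMP-high genes at 57.5%, 17% and 36.8% of the WT SMP level. All 3 SMP libraries thus lay between the WT populations, mouse 1 nearest WT SMP and mouse 2 nearest MEP. Within a mouse, SMP held the MEP-high genes at a median of 22.6%, 65% and 42.6% of its own MEP, and MEP held the SMP-high genes at 2.77%, 13.6% and 7.47% of its own SMP. SMP from the bone marrow of the same mice had the MEP-high genes at 11.7%, 11.2% and 16.1% and the SMP-high genes at 91%, 79.6% and 70%. In sorted bulk libraries, a sort that holds some cells of another type and an intermediate level in every cell cannot be told apart, nor can fewer cells of a type and less RNA per cell.

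**Figure D1:**
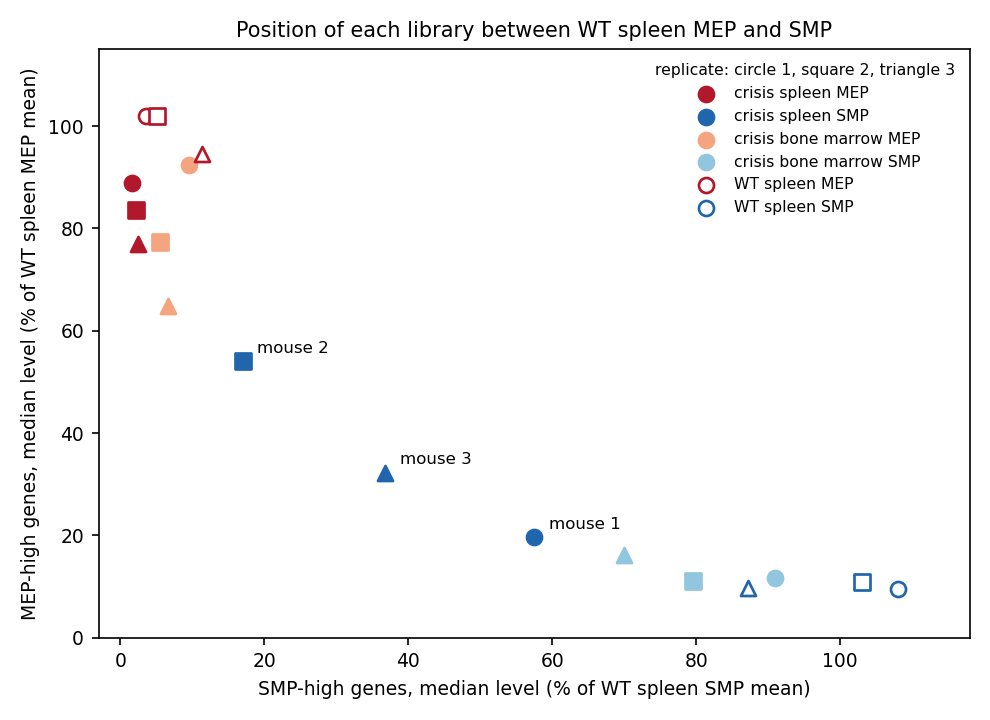
Median level of the 1214 SMP-high genes (x axis, percent of the mean of WT spleen SMP) against that of the 218 MEP-high genes (y axis, percent of the mean of WT spleen MEP) in 18 libraries; each point is 1 library. The 3 crisis spleen SMP libraries spread between the WT populations, with mouse 2 at 54% of the WT MEP level, while the crisis spleen MEP libraries stay between 76.9% and 88.8%.

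MEP and SMP remained distinct in crisis spleen, and the distance was carried mainly by genes low in MEP. Of 14306 genes with a mean of at least 10 rescaled counts, 4630 (32.4%) passed an adjusted p of 0.05 in limma with the mouse as a block, 1879 (13.1%) higher and 2751 (19.2%) lower in MEP. All 4630 had the same direction in all 3 mice, which a paired fit of 3 mice largely requires of a called gene. Of all tested genes, called or not, 4964 (34.7%) were higher and 4881 (34.1%) lower in MEP of all 3 mice. At least 4-fold higher in MEP were 57 of the called genes, against 1629 at least 4-fold lower. At least 16-fold, the counts were 7 higher and 746 lower. A median called gene was higher in MEP by 0.78, 0.39 and 0.67 log2 units in mice 1, 2 and 3 among the genes called higher, and differed by -3.25, -1.75 and -2.38 among those called lower. Of the genes called lower, SMP of mouse 2 had the lowest of the 3 SMP values for 2488 (90.4%), and of those called higher it had the highest SMP value for 1619 (86.2%). There were 57 genes under 10 rescaled counts in every MEP library and at least 100 in every SMP library, and 1 gene, the pseudogene Gm10233, the other way round. The 3 MEP libraries lay above all 3 SMP libraries for 2290 genes (16.0%) and below them for 3119 (21.8%).

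**Figure D2:**
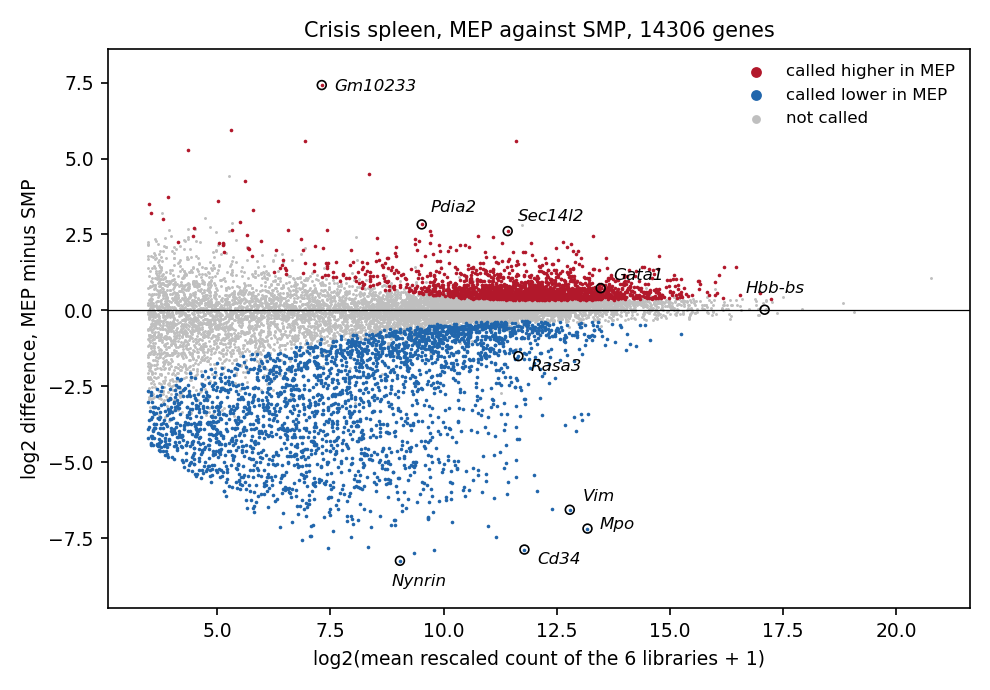
Mean rescaled count of the 6 crisis spleen libraries (x axis, log2) against the log2 difference, MEP minus SMP (y axis), for 14306 genes, each a point; red and blue points passed an adjusted p of 0.05. Of the called genes, 1629 lie at least 4-fold below 0 and 57 at least 4-fold above it.

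The size of the count depended on mouse 3, on the pairing, on the variance moderation and on the scale. Without mouse 3 the fit called 1647 genes, 227 higher and 1420 lower, and without mouse 2 it called 4851, 1833 higher and 3018 lower. Without the replicate block 2666 genes passed, 646 higher and 2020 lower. With plain variance moderation, neither trended nor robust, 1428 passed, 102 higher and 1326 lower, so most calls higher in MEP rested on the moderation used. The share of called genes that were higher in MEP was 40.6%, but 7.96% on the deposited values, 18.4% with equal totals and 51.5% after quantile normalisation, and the median over all genes was 0.02, -0.21, -0.18 and 0.13 on these scales.

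The highest differences were those of 4 pseudogenes, followed by protein-coding genes of varied roles. Gm10233, Gm5641 and Gm8430 led with log2 differences of 7.42, 5.59 and 4.48. Beside them stood Gm9843, with 0.0332, 534 and 200 rescaled counts in MEP of mice 1, 2 and 3 and 0 in all 3 SMP libraries. It was thus near 0 in both populations of mouse 1, and its log2 difference ran from 0.75 to 8.36 under the alternatives. All 4 genes are processed pseudogenes whose reads can be shared with their parent genes, so their values are uncertain. Behind them came Pdia2, a protein disulfide isomerase (chromosome 17, 26195999 to 26199087 in GRCm38), with 1181, 1301 and 1015 rescaled counts in MEP of mice 1, 2 and 3, against 36.5, 698 and 167 in SMP. MEP values were close to each other and lay above every SMP library, and the SMP values ran in the order of the libraries' distance from MEP (log2 difference 2.83, SE 0.677, adjusted p = 0.0224). Tspan15, a tetraspanin that partners the protease ADAM10, had 1015, 935 and 2172 in MEP, against 57.4, 407 and 372 in SMP (2.62, SE 0.496, adjusted p = 0.0109). Sec14l2, a lipid-transfer protein that binds tocopherol, had 5114, 4804 and 3398 in MEP, against 219, 2079 and 803 in SMP (2.61, SE 0.56, adjusted p = 0.0159). The manganese exporter Slc30a10 (2.48), Aknad1 (2.63) and Tmem56 (2.44) complete the 10 highest. In each of these protein-coding genes the fold was greatest in mouse 1 and least in mouse 2.

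The genes lowest in MEP were nearly silent there. Nynrin had 0, 5.26 and 2.68 rescaled counts in MEP, against 1946, 451 and 739 in SMP (log2 difference -8.25, SE 0.87, adjusted p = 0.00193, with a pseudocount of 1). Mdga1, a cell-surface adhesion protein anchored by GPI, had 1.53, 4.04 and 4.07 in MEP, against 2441, 443 and 993 in SMP (-8.00, SE 0.67, adjusted p = 0.00119). Adgrl4, an adhesion receptor known from endothelium, had 15.7, 17 and 34.7 in MEP, against 7571, 1876 and 4296 in SMP (-7.48, SE 0.43, adjusted p = 6.22e-04). Siglecf, a lectin known from eosinophils, was listed at 0 in all 3 MEP libraries and at 444, 103 and 148 in SMP. The others of the 10 lowest were Cd34, Afap1l1, Sorbs3, Cuedc1, Kcng1 and the pseudogene 9030619P08Rik. All 10 had their lowest SMP value in mouse 2 and still lay far above MEP there.

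The promoters of Pdia2 and Aknad1, the highest protein-coding genes, and of Nynrin and Mdga1, the lowest genes, show what sequence lies at the start of genes at both ends of the contrast. They run from 250 bases before to 50 bases after the start of the gene in RefSeq on GRCm38.p6, 5′ to 3′ on the gene's strand, at chr17:26199038-26199337 (minus strand), chr3:108739408-108739707 (plus), chr14:55853865-55854164 (plus) and chr17:29887833-29888132 (minus). Capitals mark matches, on either strand, to AGATAA for GATA factors, CCACACCC for KLF1, GAGGAAGT for PU.1 or TGACTCA for NF-E2 and AP-1.
Pdia2: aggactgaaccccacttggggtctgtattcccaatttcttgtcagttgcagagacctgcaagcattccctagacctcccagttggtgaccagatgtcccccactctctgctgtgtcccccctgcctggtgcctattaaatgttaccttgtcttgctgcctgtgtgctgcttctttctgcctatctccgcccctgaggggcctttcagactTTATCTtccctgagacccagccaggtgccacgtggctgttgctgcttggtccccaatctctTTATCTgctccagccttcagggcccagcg
Aknad1: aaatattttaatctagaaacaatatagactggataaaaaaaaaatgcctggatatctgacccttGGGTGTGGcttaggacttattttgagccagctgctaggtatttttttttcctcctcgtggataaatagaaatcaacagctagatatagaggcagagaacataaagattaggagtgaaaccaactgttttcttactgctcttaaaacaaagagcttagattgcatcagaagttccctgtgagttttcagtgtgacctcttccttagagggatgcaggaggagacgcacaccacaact
Nynrin: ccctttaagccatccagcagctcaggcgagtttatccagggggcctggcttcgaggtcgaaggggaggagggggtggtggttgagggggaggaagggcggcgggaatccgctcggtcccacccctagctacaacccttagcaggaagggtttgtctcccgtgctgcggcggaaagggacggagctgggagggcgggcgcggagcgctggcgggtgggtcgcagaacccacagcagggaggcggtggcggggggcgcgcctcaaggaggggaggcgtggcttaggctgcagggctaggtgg
Mdga1: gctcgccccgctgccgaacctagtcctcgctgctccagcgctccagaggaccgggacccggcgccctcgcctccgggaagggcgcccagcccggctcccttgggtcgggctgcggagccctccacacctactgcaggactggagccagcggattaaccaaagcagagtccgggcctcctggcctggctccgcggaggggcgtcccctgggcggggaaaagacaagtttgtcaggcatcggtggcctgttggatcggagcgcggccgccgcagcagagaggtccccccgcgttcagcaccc
Pdia2 held 2 matches to the GATA motif, read on its minus strand as TTATCT, and Aknad1 held 1 to the KLF1 motif, read as GGGTGTGG. Neither Nynrin nor Mdga1 held any of the 4 motifs in this window. The window of Mdga1 lies inside the gene's span in GENCODE M21 (29827949 to 29970087, minus strand) and not at the start of that span. Of the 336 genes called at least 2-fold higher in MEP, 243 had a promoter in the table, and of these 13.2% held the GATA motif, 8.64% KLF1, 4.12% PU.1 and 6.58% NF-E2 and AP-1. Of the 746 genes called at least 16-fold lower, 565 had a promoter, and 9.91% held GATA, 6.02% KLF1, 7.79% PU.1 and 7.43% NF-E2 and AP-1. Among the 10347 promoters of all tested genes the shares were 8.21% for GATA, 4.65% for KLF1, 3.87% for PU.1 and 4.33% for NF-E2 and AP-1. The shares at both ends were above these, but that of PU.1 at the high end hardly so. Among all 27025 genes with a promoter, tested or not, the shares were 12.7%, 4.09%, 3.69% and 5.95%. Against these, GATA was near the level at the high end and under it at the low end. Over all 1879 genes called higher the shares were 7.83%, 5.17%, 3.00% and 3.40% in the same order. These shares describe letters in a window and no binding was measured. They count a gene if any of its promoters held the motif, whereas 1 promoter per gene is printed above.

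The sort genes check the labels and are no findings. Cd34, an antigen that the SMP gate selects (chromosome 1, 194938819 to 194961279), had 21.9, 27.3 and 26.4 rescaled counts in MEP, against 11255, 3034 and 6843 in SMP. The SMP library of mouse 2 thus held the least Cd34 of the SMP libraries, far above every MEP library. Kit, the stem cell factor receptor that the SMP gate selects, had 9756, 4995 and 19546 in MEP, against 23857, 10688 and 38200 in SMP, lower in MEP in all 3 mice (log2 difference -1.12, adjusted p = 0.00175). Fcgr2b was lower in MEP (-4.38, adjusted p = 0.00157), and Fcgr3 did not pass (-1.56, adjusted p = 0.143). Ly6a, the gene of Sca-1, had at most 2.65 rescaled counts in any of the 6 libraries.

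Rasa3 itself was lower in MEP. The gene (chromosome 8, 13566948 to 13677603) had 1517, 1776 and 1567 rescaled counts in MEP of mice 1, 2 and 3, against 6615, 3037 and 4820 in SMP (log2 difference -1.51, SE 0.241, adjusted p = 0.00652). MEP values were alike in the 3 mice and every SMP value was above them. The counts include transcripts of the mutant allele and do not measure RASA3 function. In WT spleen Rasa3 was lower in MEP as well (-2.58, adjusted p = 3.01e-05). Its crisis minus WT difference did not pass (1.07, adjusted p = 0.0937). Of 24 regulators of Ras and Rap, 8 were lower and 2 higher in MEP, with a median of -0.02, and 5 and 0 without mouse 3. Over all genes 19.2% were lower and 13.1% higher, with a median of 0.02. The 8 hold the GTPase-activating proteins Rasa3, Rasa4, Rasal1 and Rasal3 and the exchange factors Rasgrp2, Rasgrp3, Rasgrp4 and Rapgef2. Rasgrp2, which activates Rap1 in platelets, had 61.2, 53 and 48.2 in MEP, against 4204, 987 and 2158 in SMP (-5.24, SE 0.368, adjusted p = 8.41e-04). Rap1gap, which switches off Rap1, was among those higher in MEP (1.44, adjusted p = 0.0462).

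Feedback genes of the ERK pathway, transcribed when Ras signals through ERK, were lower in MEP for 10 of 16 and higher for none, with a median of -1.15. Without mouse 2, 7 were lower, and without mouse 3 or without the block, 3 were. On the deposited values 6 were lower and after quantile normalisation 5. WT spleen had 14 of the 16 lower in MEP, with a median of -2.08. The phosphatase Dusp5 had 24.5, 25 and 28 rescaled counts in MEP, against 673, 315 and 264 in SMP (log2 difference -3.84, SE 0.407, adjusted p = 0.00195). Dusp6 had 65.4, 96.4 and 214 in MEP, against 1478, 493 and 712 in SMP (-2.85, adjusted p = 0.00895). Of 14 immediate early genes 4 were lower and 3 higher, beside 19.2% lower and 13.1% higher over all genes. The count was 0 lower and 1 higher without mouse 3, 1 lower and 2 higher without the block, 6 lower and 0 higher on the deposited values and 1 lower and 4 higher after quantile normalisation. Fos (-2.37), Egr1 (-1.76), Nr4a1 (-5.06) and Klf6 (-1.22) were lower, while Jun (1.20), Jund (0.98) and Dusp1 (1.44) were higher. The groups overlapped for Egr1, with 56.5, 601 and 347 in MEP, against 677, 1193 and 578 in SMP.

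Erythroid transcription factors were mostly higher in MEP, by at most 1.27 log2 units. Of 15 tested, 9 were higher and 2 lower, with a median log2 difference of 0.73, beside 0.02 over all genes. Among all genes 13.1% were higher and 19.2% lower. Without mouse 3 the count was 3 higher and 1 lower, without the block 4 and 2, and on the deposited values 2 and 1. Gata1, the master regulator of the red cell lineage, had 16957, 14057 and 11345 rescaled counts in MEP, against 7102, 11228 and 7486 in SMP (0.73, SE 0.182, adjusted p = 0.0258). Klf1, which drives globin and membrane genes, had 23038, 18962 and 13875 in MEP, against 7235, 13720 and 7921 in SMP (0.98, SE 0.221, adjusted p = 0.0185). SMP of mouse 2 lay just under MEP of mouse 3 for both genes, so the groups came close without overlap. Sox6 (1.20), E2f2 (1.27) and Gfi1b (1.05) were higher as well. Nfe2, needed for platelet release (-0.59), and the corepressor Cbfa2t3 (-1.32, adjusted p = 0.00113) were lower.

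Enzymes and carriers of heme synthesis were higher in MEP in 13 of 14 cases and lower in none, with a median log2 difference of 1.18. Beside them, 13.1% of all genes were higher and 19.2% lower. Without mouse 2 the count was 13, without mouse 3 it was 5 and on the deposited values 8. By mouse that median was 1.72, 0.63 and 1.08. Uros, which closes the ring of the heme precursor, had 5549, 4032 and 2730 rescaled counts in MEP, against 1049, 2205 and 891 in SMP (1.63, SE 0.266, adjusted p = 0.00702). MEP lay above SMP in every mouse, with the least gap in mouse 2. The exception was Alas2, the rate-limiting erythroid enzyme, with 5678, 10067 and 6280 in MEP, against 5594, 11148 and 5731 in SMP (0.00, SE 0.11, adjusted p = 0.99).

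The globins behaved like Alas2. Hbb-bs, an adult beta globin gene of the reference annotation, had 112801, 196856 and 106472 rescaled counts in MEP, against 100183, 222185 and 101375 in SMP (log2 difference 0.02, SE 0.12, adjusted p = 0.904). Hba-a1, an adult alpha globin, had 109809, 168032 and 79568 in MEP, against 101407, 206448 and 94754 in SMP (-0.14, SE 0.128, adjusted p = 0.416). The MEP and SMP ranges overlapped for both and mouse 2 had the highest value in each population. None of the 4 globins tested passed, although after quantile normalisation 3 of the 4 were called lower in MEP. The embryonic globins had means under 10 and were not tested. The part of maturing erythroid cells in these levels was not tested.

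Proteins of the red cell membrane and surface were higher in MEP in 21 of 27 cases and lower in 1, with a median log2 difference of 0.97. All genes together gave 13.1% higher and 19.2% lower. Of the 27, 18 were higher without mouse 2, 5 without mouse 3, 13 without the block and 11 on the deposited values. Sptb, the beta chain of spectrin, had 29015, 47853 and 45882 rescaled counts in MEP, against 4841, 25612 and 12227 in SMP (1.80, SE 0.287, adjusted p = 0.00652). The MEP values lay above all SMP values. Slc4a1, the anion exchanger band 3, differed little, with 22258, 52438 and 29232 in MEP, against 18891, 36798 and 19606 in SMP (0.44, SE 0.118, adjusted p = 0.031), and its groups overlapped because both libraries of mouse 2 were high. Car2, a carbonic anhydrase, was higher in MEP (1.43, adjusted p = 0.0139), whereas Car1 was not, with 18210, 80307 and 140730 in MEP, against 28952, 93282 and 135457 in SMP (-0.28, adjusted p = 0.213). Car1 followed the mouse and not the population. The member lower in MEP was the glucose transporter Slc2a1 (-2.68, adjusted p = 0.00818).

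**Figure D3:**
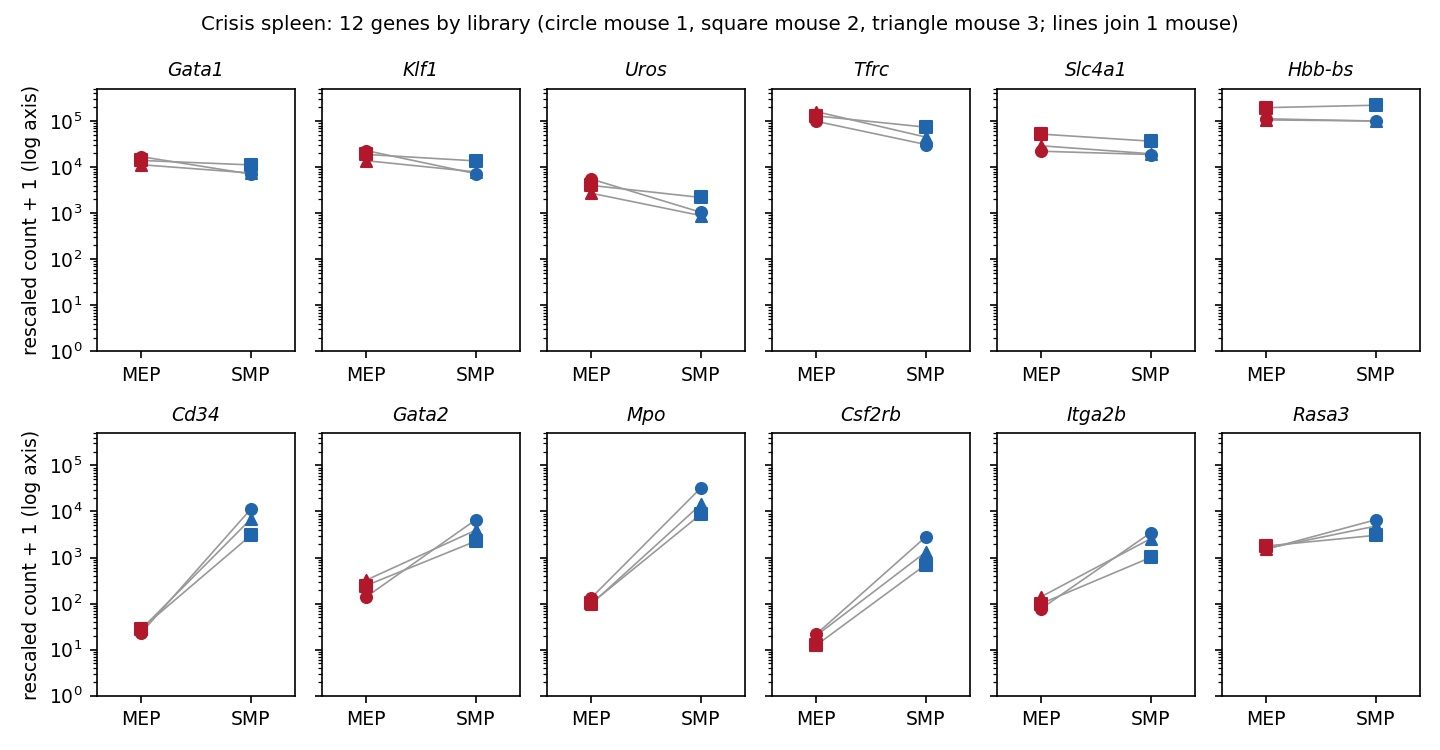
Rescaled count plus 1 (log axis) of 12 genes in each crisis spleen library, MEP left and SMP right; symbols are mice and lines join the libraries of 1 mouse. Levels are not scaled by gene length, so panels are read within a gene. Gata1, Klf1, Uros and Tfrc are higher in MEP of all 3 mice by the least in mouse 2, Hbb-bs does not separate the populations, and Cd34, Gata2, Mpo, Csf2rb and Itga2b lie far apart in all 3 mice.

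Of 14 iron genes 11 were higher in MEP and none lower, with a median of 0.74. The count was 1 without mouse 3, 7 without the block and 2 on the deposited values. The transferrin receptor Tfrc, which brings iron into erythroblasts, had 99446, 130440 and 161577 rescaled counts in MEP, against 31134, 74206 and 45106 in SMP (log2 difference 1.44, SE 0.204, adjusted p = 0.00444). Among 15 genes of the erythropoietin and STAT5 response 4 were higher and 1 lower, beside 13.1% higher and 19.2% lower over all genes. Their median was -0.07, and 1 was higher without mouse 3 or without the block. The receptor Epor had 11734, 9257 and 10141 in MEP, against 3299, 7509 and 5841 in SMP (0.98, SE 0.267, adjusted p = 0.0337). Erfe, the hormone by which erythroblasts lower hepcidin, had 1479, 7956 and 3870 in MEP, against 333, 4238 and 1101 in SMP (1.62, SE 0.231, adjusted p = 0.00456). Cish, a STAT5 target that dampens the receptor, had 824, 11525 and 3361 in MEP, against 1937, 8035 and 1787 in SMP (0.07, adjusted p = 0.91). Cish and Erfe were highest in mouse 2 and lowest in mouse 1 within MEP, a spread between mice wider than the gap between populations for Cish.

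Genes of the stem and early progenitor state were lower in MEP without exception: 24 of 24 passed, 24 also without mouse 2 and 21 without mouse 3, and the median log2 difference was -4.13 (by mouse -5.03, -2.74 and -4.26). Among all genes 19.2% were lower and 13.1% higher. Cd34, on this list, is an antigen that the SMP gate selects. Gata2, which maintains stem cells and precedes Gata1, had 138, 245 and 321 rescaled counts in MEP, against 6625, 2270 and 3937 in SMP (-4.13, SE 0.425, adjusted p = 0.00178). Erg, a transcription factor of stem cell upkeep, had 21.7, 8.01 and 15.9 in MEP, against 2769, 709 and 1730 in SMP (-6.64, SE 0.296, adjusted p = 3.18e-04). The cytokine receptor Flt3 had 331, 274 and 220 in MEP, against 8883, 2265 and 6914 in SMP (-4.25, SE 0.357, adjusted p = 0.00121). For these genes MEP was low in all 3 mice, and SMP of mouse 2 was the lowest SMP library but above every MEP library. The smallest differences in the list were those of Msi2 (-0.83), Runx1 (-0.89) and Hoxa9 (-1.04), all called.

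Megakaryocyte and platelet genes were low in MEP, although the name of the gate includes that lineage: 18 of 22 tested were lower and none higher, with a median of -4.19 that takes in fitted values of genes listed at 0. All genes together gave 19.2% lower and 13.1% higher. Itga2b, the alpha chain of the fibrinogen receptor, had 76.5, 98.8 and 140 rescaled counts in MEP, against 3476, 1008 and 2581 in SMP (log2 difference -4.34, SE 0.388, adjusted p = 0.00131). Pf4, a platelet granule chemokine, had 3.13, 0 and 0 in MEP, against 562, 127 and 134 in SMP (-7.06, SE 0.552, adjusted p = 0.00104). Treml1 and Selp, of platelet granules, were listed at 0 in all 3 MEP libraries. Gp5 (-1.35), Vwf (-0.94), Gp9 (-0.28) and Tubb1 (-2.18) did not pass. WT spleen showed the same direction, with a list median of -4.12 and 21 of 22 lower in MEP.

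Myeloid genes were low in MEP to a like degree. Of 22 transcription factors and cytokine receptors 18 were lower and none higher (median -4.42), and of 16 primary granule genes 14 were lower and none higher (median -5.02). Mpo, the myeloperoxidase of primary granules, had 131, 99.6 and 96.1 rescaled counts in MEP, against 32452, 8721 and 14219 in SMP (log2 difference -7.19, SE 0.268, adjusted p = 3.18e-04). Csf2rb, the shared receptor chain for GM-CSF and its relatives, had 20.6, 11.4 and 19.1 in MEP, against 2821, 703 and 1319 in SMP (-6.30, SE 0.342, adjusted p = 6.17e-04). Spi1, which encodes PU.1, had 27.9, 50.8 and 71 in MEP, against 1731, 564 and 1272 in SMP (-4.50, SE 0.469, adjusted p = 0.00187). MEP libraries were low in every mouse, and the order of the SMP libraries was the same for the 3 genes, mouse 1 above mouse 3 above mouse 2. Of 13 mature neutrophil genes 2 were lower, Padi4 and Itgam, and none higher, beside 19.2% lower and 13.1% higher over all genes. Ngp, a granule protein of maturing neutrophils, had 346, 185 and 131 in MEP, against 155, 161 and 231 in SMP (0.18, adjusted p = 0.757).

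DNA replication genes were higher in MEP by a small margin. Of 22 genes of G1/S and replication 19 were higher and none lower, with a median log2 difference of 0.69, and 9 were higher without mouse 3 and 5 on the deposited values. Ccne2, a cyclin of S phase entry, had 4743, 7281 and 4739 rescaled counts in MEP, against 1446, 2291 and 921 in SMP (1.91, SE 0.162, adjusted p = 0.00124). Rrm2, the subunit that limits deoxynucleotide supply, had 30416, 39951 and 23692 in MEP, against 7970, 22209 and 8521 in SMP (1.42, SE 0.201, adjusted p = 0.00446). Of 21 genes of G2/M and mitosis 7 were higher (median 0.52), with 15 without mouse 2, 2 without mouse 3, 4 without the block and 0 on the deposited values. Both cell cycle lists stand beside 13.1% higher and 19.2% lower over all genes. Mki67, a marker of cycling cells, had 78810, 93784 and 86032 in MEP, against 45305, 53698 and 37205 in SMP (0.94, SE 0.128, adjusted p = 0.00405). Ube2c showed no such gap, with 8899, 7739 and 7204 in MEP, against 5034, 10556 and 6579 in SMP (0.17, adjusted p = 0.596), since mouse 2 had it higher in SMP.

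Of 20 integrin and adhesion genes 11 were lower and 2 higher, with a median of -1.82. This list and those that follow stand beside 13.1% higher and 19.2% lower over all genes. The leukocyte integrin Itgal had 48.2, 117 and 58 rescaled counts in MEP, against 6793, 1436 and 1952 in SMP (log2 difference -5.26, SE 0.588, adjusted p = 0.00227). Cd24a had 73616, 113709 and 92781 in MEP, against 22739, 72285 and 40234 in SMP (1.18, SE 0.196, adjusted p = 0.00723). Of 18 glycolysis genes 7 were lower and 3 higher, and 5 and 1 without mouse 3. The lower count was 10 with equal totals and 12 after quantile normalisation. Pkm, the pyruvate kinase gene of most tissues, had 1395, 1213 and 1922 in MEP, against 24114, 8998 and 18270 in SMP (-3.42, SE 0.223, adjusted p = 7.81e-04). Pklr, the pyruvate kinase gene of red cells and liver, had 38170, 38379 and 27211 in MEP, against 7519, 28321 and 11676 in SMP (1.33, SE 0.321, adjusted p = 0.0226). In each mouse MEP had less Pkm and more Pklr than SMP. Oxidative stress defence had 8 of 19 genes higher and none lower, with a median of 0.32, among them the red cell peroxidase Prdx2 (1.02) and the glyoxalase Hagh (0.96). Without mouse 3 that count was 1, without the block 2 and on the deposited values 0. Heat shock and unfolded protein genes had 6 of 15 higher and 1 lower (median 0.40), with asparagine synthetase Asns at 1.14 and the mTOR inhibitor Ddit4 at -1.73. The higher count was 2 without mouse 1, 4 without mouse 2, 0 without mouse 3, and 1 without the block or on the deposited values.

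Counts of the interferon, p53 and apoptosis lists stand beside 13.1% higher and 19.2% lower over all genes. Interferon response genes had 2 of 18 higher and 7 lower in MEP, with a median log2 difference of -0.44, and the lower count was 2 without mouse 3, 3 without the block and 4 on the deposited values. Ifi44 (-4.53) and the antiviral GTPase Mx1 (-4.03) were lowest, and Usp18, the protease that removes ISG15, was highest (1.29). The p53 response had 2 of 17 higher, Ccng1 (0.45) and Sesn2 (0.73), and 2 lower, Perp (-2.81) and Plk3 (-1.09), shares under those of all genes, and none passed without mouse 3 or without the block. Apoptosis and survival genes had 2 of 15 higher and 3 lower, near the shares of all genes, and 1 and 1 without mouse 3. Bcl2, which protects from mitochondrial death, had 51.7, 125 and 175 rescaled counts in MEP, against 2229, 1196 and 2014 in SMP (-4.06). Bcl2l11, which encodes the death inducer BIM, was higher in MEP (1.20), as was the protector Mcl1 (0.39), while Bcl2l1, the erythroid protector BCL-XL, did not pass (-0.09). The signs of the p53 and apoptosis medians turned with the scale.

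Marker sets of other cells were measured beside these lists. Summed T and NK markers came to 154, 169 and 123 in MEP, against 936, 210 and 399 in SMP, most of it Lck, with Cd3d and Cd3e under 10 throughout. Mast cell and basophil markers came to 31.2, 30.3 and 21 in MEP, against 1099, 316 and 600 in SMP. Macrophage markers came to 73.4 to 96.1 in MEP, against 87.1 to 150 in SMP, and endothelial and stromal markers to 9.63 to 79.9 in MEP, against 49.9 to 63.1 in SMP, with Cdh5 at 0 in all 3 MEP libraries. Neutrophil markers came to 1111, 582 and 439 in MEP, against 378, 492 and 768 in SMP. Megakaryocyte markers came to 291, 405 and 379 in MEP, against 1661, 703 and 748 in SMP. The B cell list had 7 of 15 members lower in MEP and none higher, T and NK 6 of 14, mast cell 5 of 7, monocyte and macrophage 6 of 13 with 1 higher, and stroma and endothelium 6 of 9. Beside these lists, 19.2% of all genes were lower and 13.1% higher. The B cell count was 3 without mouse 1, 2 without mouse 3 and 2 after quantile normalisation, and that of T and NK cells 10 without mouse 2 and 4 without mouse 3. Named members were Cd79b (-3.49) and Rag2 (-4.15) for B cells, Gzmb (-6.55) for T and NK cells, Cpa3 (-5.62) and Hdc (-5.02) for mast cells, Siglech (-6.97) for plasmacytoid dendritic cells and Vim (-6.57) and Emcn (-5.89) for stroma and endothelium. Vim, an intermediate filament gene that blood cells also use, had 134, 102 and 154 in MEP, against 21713, 5904 and 14470 in SMP, and is on the list but not in the sums above. Zbtb46, on the monocyte and macrophage list as a factor of dendritic cells, was its member higher in MEP (1.15), and it was higher in MEP of WT spleen too (3.24). Rag1, which cuts antigen receptor genes, stood out in 1 mouse, with 82.8, 13.1 and 5.41 in MEP, against 1199, 24.2 and 24.9 in SMP. The part of other cells in these differences was not tested.

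Set beside WT spleen, the median difference of genes high in MEP was smaller in crisis, and that of genes low in MEP was nearer to WT in mice 1 and 3 than in mouse 2. Among 463 genes at least 4-fold higher in WT MEP, the median log2 difference was 1.18 in crisis, against 2.83 in WT, and 293 (63.3%) were called higher in crisis. Among 2351 genes at least 4-fold lower in WT MEP it was -3.04 in crisis, against -3.48 in WT, and 1905 (81.0%) were called lower. WT values chose both sets, so that crisis medians nearer 0 are partly built in. By mouse the crisis medians were 1.83, 0.57 and 1.06 for the first set and -3.96, -2.11 and -2.90 for the other. The WT side holds 1 library that stands apart: WT MEP replicate 3 had the SMP-high genes at 11.4% of the WT SMP level, against 3.59% and 5.12% in the other WT MEP libraries, and Cd34 at 312, against 37.7 and 33.5. Levels of the SMP-high genes in crisis SMP were 17% to 57.5% of WT SMP, as given above. Across 14243 genes the crisis and WT contrasts, which share no library, had a Pearson r of 0.878, and genes are not independent replicates. The WT contrast called 9288 of 14839 genes (62.6%), 29.4% higher and 33.2% lower in MEP. That count is from a fit of 12 libraries with the mouse as a random block. The 4630 of crisis spleen are from the paired fit of 6 libraries, so the 2 counts do not measure a change in distance.

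The difference of the contrasts, crisis minus WT, passed for 674 of 14839 genes (4.54%), 127 above 0 (0.856%) and 547 below 0 (3.69%), with adjusted p of 0.0229 and up. Of the 547, 545 were higher in MEP than SMP in WT, which is partly built in because WT values enter the difference. The paired fit of the 6 crisis libraries called 264 of the 547 higher in MEP and 6 lower. Heme synthesis gave 11 of 14 below 0 (median difference -1.38, from a WT median of 2.60), red cell membrane 17 of 27 (-1.80) and G2/M 10 of 21 (-0.85). Uros had 5668, 4182 and 2766 in crisis MEP and 1070, 2289 and 911 in crisis SMP, against 7990, 7187 and 7889 in WT MEP and 697, 837 and 835 in WT SMP, all on the scale of these 12 libraries. Every crisis MEP library was below every WT MEP library, and every crisis SMP library was above every WT SMP library (difference -1.66, SE 0.406, adjusted p = 0.0447). Tfrc had 101577, 135279 and 163699 in crisis MEP and 31743, 77043 and 46106 in crisis SMP, against 72648, 57659 and 123603 in WT MEP and 5849, 6531 and 5912 in WT SMP (-2.28, SE 0.404, adjusted p = 0.0276). MEP of the 2 states overlapped for Tfrc, and crisis SMP lay above WT SMP throughout. Stem genes gave 2 of 24 above 0 and none below, and megakaryocyte genes 1 of 22 above 0 and none below. Mpo differed by -0.09 (adjusted p = 0.971), with 134, 103 and 97.4 in crisis MEP and 33087, 9055 and 14534 in crisis SMP, against 92, 140 and 2698 in WT MEP and 53875, 52346 and 32450 in WT SMP. These calls are fragile: without crisis mouse 1 they numbered 3617, without mouse 2 they numbered 2 and without mouse 3 there were none (2675 at an unadjusted p under 0.05, limma). Leaving out a WT library gave 0 to 204, with 0 without WT MEP replicate 1 or 2 (3010 and 2923 at an unadjusted p under 0.05). Without the replicate block 0 passed (3009 unadjusted). The medians of the heme list were -1.67, -1.12 and -1.34 without crisis mouse 1, 2 and 3, and -0.76 on the deposited values.

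**Figure D4:**
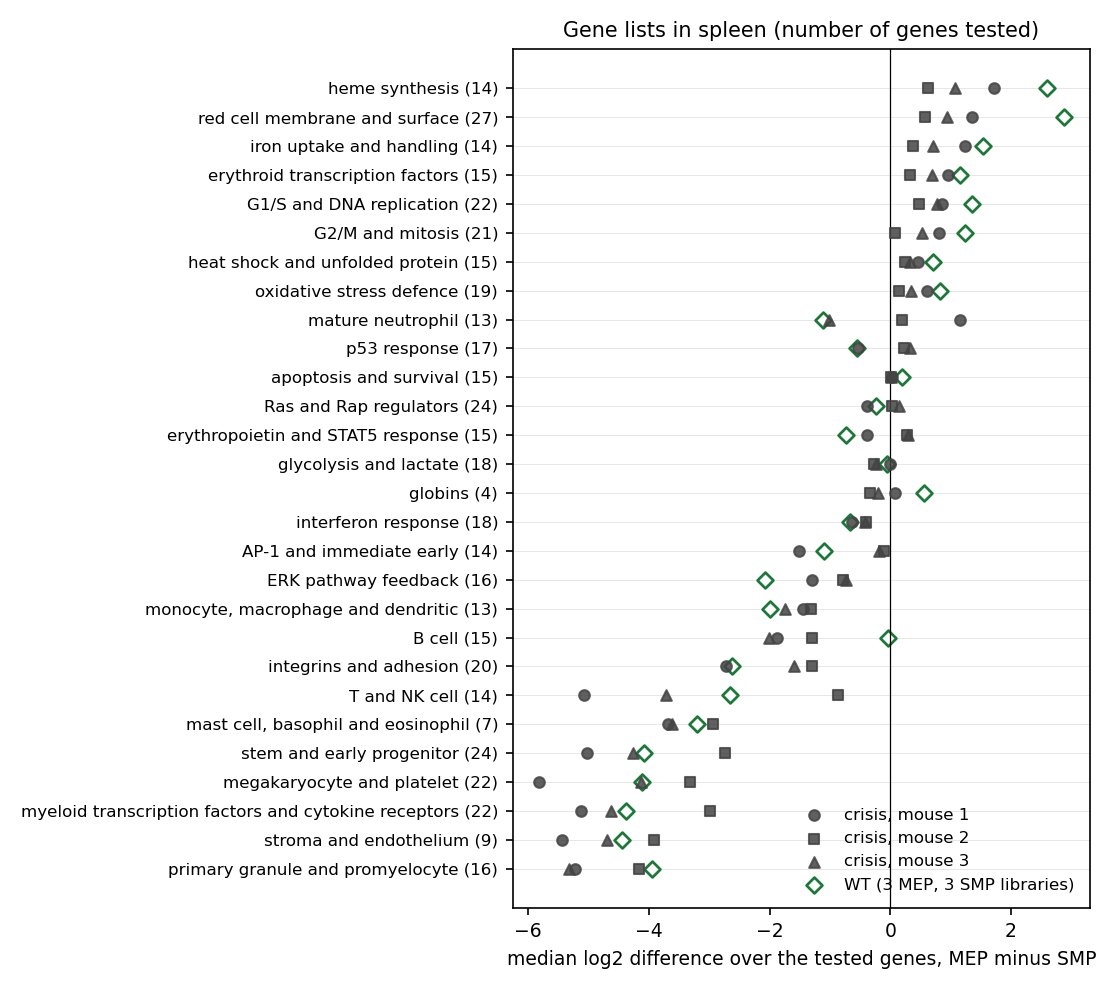
Median log2 difference, MEP minus SMP (x axis), over the tested genes of each of 28 lists (y axis, number tested in brackets); filled symbols are the 3 crisis mice and open diamonds the WT libraries. Heme, membrane and iron lists lie right of 0 but left of WT in all 3 mice. Stem, megakaryocyte and primary granule lists lie left of 0. The mice fall on both sides of WT for the stem and megakaryocyte lists, and left of WT for the primary granule list.

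**Figure D5:**
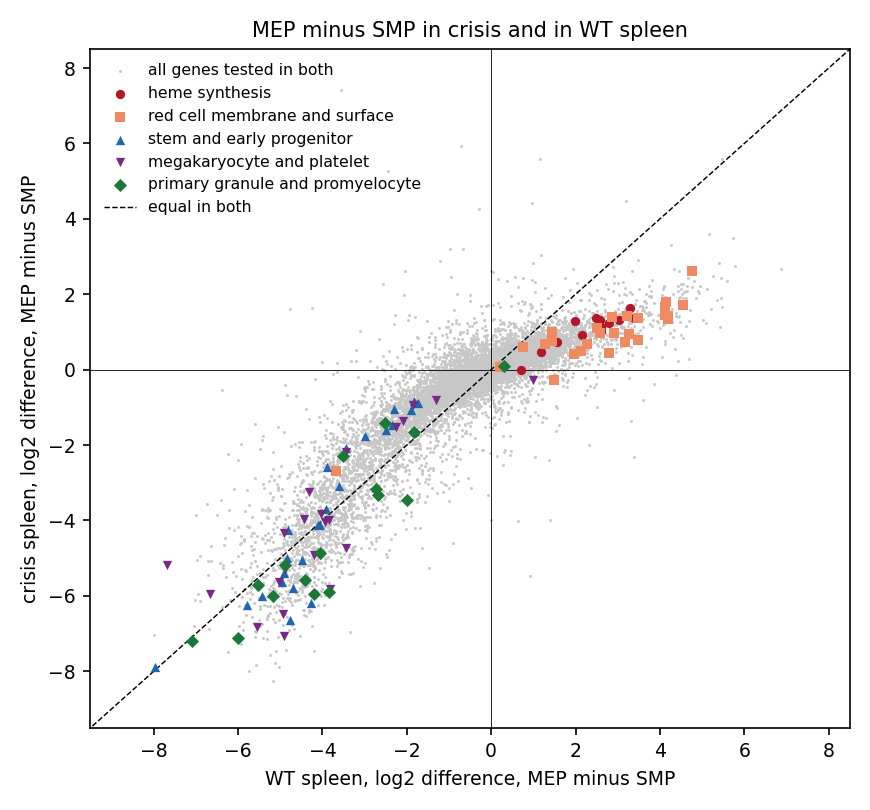
Log2 difference, MEP minus SMP, in WT spleen (x axis) and crisis spleen (y axis), for each gene tested in both, with 5 lists in colour; the dashed line marks equal values. Heme and membrane genes fall below the line on the right, while stem, megakaryocyte and granule genes lie on both sides of it on the left.

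In bone marrow of the same crisis mice the medians of erythroid genes were larger than in spleen, but no single gene passed a test of the difference between organs. The bone marrow contrast called 9228 of 14739 genes (62.6%), 30.0% higher and 32.6% lower in MEP, and the same fit called 6655 in spleen. For the genes at least 4-fold higher in WT spleen MEP the median was 1.18 in crisis spleen, against 2.22 in crisis bone marrow, and for those at least 4-fold lower it was -3.04 in crisis spleen, against -2.98 in crisis bone marrow. Red cell membrane genes had a median of 0.97 in spleen, against 2.49 in bone marrow, and stem genes -4.13 in spleen, against -4.16 in bone marrow. No gene passed for the difference between organs in limma (0 of 14739), with 2557 at an unadjusted p under 0.05 and a smallest adjusted p of 0.116. Nearest to the threshold by the test statistic were Stx7 (1.13), Ccdc50 (0.83) and Fkbp1a (1.24) above 0 and Car1 (-1.67), Trib2 (-1.14) and Zmat3 (-1.05) below 0, none of which passed.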

How the data were processed

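Poly(A) RNA libraries (KAPA mRNA HyperPrep, from PureLink total RNA, per the labels' protocols) of crisis spleen MEP and SMP were compared, 3 mice each, with young WT spleen and crisis bone marrow beside them. The authors deposited normalised counts (a signal that is never negative and need not be whole) for 26286 genes and, in another table, regularised log2 values for 25287, of which 25164 were in both. The submitters' processing notes name Bowtie2 2.2.0, RSEM, DESeq2 and GRCm38, with no role stated. Columns look like sums of separately scaled runs, so whole reads were not recovered, the depth in reads is unknown and no counting interval is given. Gene names came from GENCODE M21 for 25607 identifiers, and promoters from RefSeq on GRCm38.p6.

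The deposited counts of the 6 libraries were divided by median ratios (log2 factors of -0.15, -0.12 and -0.03 for MEP and 0.21, -0.42 and 0.58 for SMP of mice 1, 2 and 3), and log2(count + 1) was tested for genes with a mean of at least 10. Folds on this scale understate the change of low genes. limma 3.58.1 in R 4.3.3 fitted the population with the mouse as a block, with trended, robust variance moderation, and Benjamini-Hochberg adjusted p-values over all tested genes were called under 0.05. Every adjusted p is from limma. An exact test of 3 pairs cannot go below 0.25. The mouse pairs the libraries because both come from 1 animal, and deviations from group means correlated at 0.097, 0.220 and 0.405 for own numbers, against -0.265 to 0.069 otherwise. Differences from WT and from bone marrow were interaction terms in 12-library fits, the first with the mouse as a random block (correlation 0.379). Scripts ran in Python 3.11.15 with pandas 2.3.3, numpy 2.4.6 and matplotlib 3.10.9, and the fit was checked on simulated data.

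Members and lists were chosen with earlier results of these data known. Named genes were the 10 highest and lowest called with a mean of at least 100, the sort genes and Rasa3, up to 2 highest and lowest of each list, the 5 most abundant of each population, and the 5 highest and lowest of each called difference or the 3 nearest to passing. Other list members named were added for their known roles after their values were seen. Alternatives changed the scaling, pseudocount, filter, moderation, block, table and libraries. A few genes of the lists are not reported here by name.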

Additional observations from a re-analysis of the deposited data

Results flagged for a closer look

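The MEP minus SMP difference of 10 genes differed between crisis and WT spleen by a test of that difference (limma interaction, on the scale of 12 libraries), 5 above 0 and 5 below. All 10 calls belong to a test whose count went to 0 without crisis mouse 3 and without the replicate block.

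Of those above 0, Fn1, which encodes fibronectin, had 257, 483 and 897 rescaled counts in crisis MEP and 201, 372 and 508 in crisis SMP, against 21.1, 28.7 and 90.2 in WT MEP and 340, 333 and 406 in WT SMP (difference 3.72, SE 0.663, adjusted p = 0.0276). In each crisis mouse MEP was above SMP, and every crisis MEP library was above every WT MEP library. Acot1, an acyl-CoA thioesterase, had 313, 54.7 and 323 in crisis MEP and 215, 135 and 320 in crisis SMP, against 37.4, 26.4 and 21.2 in WT MEP and 761, 516 and 347 in WT SMP (3.93, SE 0.743, adjusted p = 0.0288). B3gnt7, a glycosyltransferase, had 363, 1270 and 1081 in crisis MEP and 507, 1566 and 816 in crisis SMP, against 13.6, 35.9 and 117 in WT MEP and 538, 564 and 510 in WT SMP (3.63, SE 0.832, adjusted p = 0.0375). Hoxa6 differed by 2.47 (adjusted p = 0.0301) and Slc35d3, a transporter of platelet dense granules, by 2.49 (adjusted p = 0.0459).

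Of those below 0, Sphk1, which makes sphingosine 1-phosphate, had 11316, 7293 and 10851 in crisis MEP and 1686, 6478 and 5854 in crisis SMP, against 9435, 10871 and 8989 in WT MEP and 391, 499 and 626 in WT SMP (difference -3.02, SE 0.594, adjusted p = 0.0295). MEP levels of the 2 states overlapped and every crisis SMP library was above every WT SMP library. Ugt8a, which makes galactosylceramide, had 2361, 3334 and 3103 in crisis MEP and 229, 1853 and 1097 in crisis SMP, against 3317, 3415 and 3028 in WT MEP and 90.9, 110 and 39.5 in WT SMP (-3.55, SE 0.781, adjusted p = 0.0341). The glucose transporter Slc2a4 differed by -3.26 (adjusted p = 0.0229), Disp2 by -2.94 (adjusted p = 0.0341) and 6030468B19Rik by -2.92 (adjusted p = 0.0276), and for these 3 the crisis SMP values were also all above the WT SMP values.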

How the results depend on the processing

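The crisis contrast called 4630 genes, and 3773 to 6655 under equal totals, quantile normalisation, regularised values, other pseudocounts and filters, a random replicate block or a shared spread with bone marrow. It called 2574 on the deposited values, 2666 with no replicate block and 1428 with plain moderation, and 1647 to 4851 with a mouse left out, the lowest without mouse 3. Fewer mice leave 1 residual degree of freedom before moderation. The 94 called of 140 named genes kept their direction under every alternative that gave a value. Without mouse 3 33 named genes were no longer called, and with plain moderation 51 were not. The WT difference, 674 genes, gave 2504 with all WT spleen libraries, 1 on the deposited values, 1022 with a mean of at least 100, 335 without a filter, 0 with no replicate block, 5 with plain moderation, 2095 after quantile normalisation and 406 on regularised values, and 0 to 3617 with a library left out. The bone marrow difference, 0 genes, gave 65 on the deposited values and 0 to 2 with a mouse left out. Bone marrow alone gave 5522 on the deposited values, against 9228. In no other comparison did the replicate block change a call count by over 1.5 times. Sign changes were all in uncalled genes, and the cause was not tested. On the deposited values these were Alas2 -0.22, Hbb-bs -0.20, Calr -0.13, Vpreb3 -0.09, Col1a1 -0.05, Pold1 -0.11, Gins2 -0.05, Ube2c -0.05, Aurkb -0.05, Spry1 -0.18 and Eef2 -0.17. With equal totals they were Alas2 -0.20, Hbb-bs -0.18, Calr -0.10, Vpreb3 -0.06, Col1a1 -0.03, Pold1 -0.09, Gins2 -0.02, Ube2c -0.03, Aurkb -0.03, Spry1 -0.16 and Eef2 -0.14. After quantile normalisation they were Fcgr3 0.22, Alas2 -0.21, Hbb-bs -0.16, Socs2 0.01, Gp9 0.77, Calr -0.17, Igll1 1.35, Klrk1 0.58, Gzma 1.45, Pold1 -0.14, Gins2 -0.01, Ube2c -0.06, Aurkb -0.05, Gm42418 0.00 and Eef2 0.00. On regularised values they were Alas2 -0.04, Hbb-bs -0.01 and Vpreb3 -0.00, with 12 libraries Alas2 -0.01, and with a pseudocount of 5 Vpreb3 -0.01. With a mouse left out, Alas2 ranged over -0.06 to 0.08, Hbb-bs -0.04 to 0.12, Gp9 -0.70 to 0.24, Igll1 -0.66 to 0.48, Vpreb3 -0.05 to -0.01, Klrk1 -2.10 to 0.24, Gzma -2.50 to 0.03, Col1a1 -1.09 to 1.0, Ube2c -0.14 to 0.48, Cat -0.18 to 0.11, Spred2 -0.15 to 0.11, Spry1 -0.05 to 0.22, Eef1a1 -0.07 to 0.03, Eef2 -0.03 to 0.17 and Hsp90ab1 -0.19 to 0.04.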

Other observations

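Gm42418, a locus that overlaps ribosomal RNA sequence, had the highest count of any gene in both populations, with 2633255, 2780459 and 1657819 rescaled counts in MEP of mice 1, 2 and 3, against 615066, 1231480 and 1744538 in SMP (log2 difference 1.07, adjusted p = 0.0643). Its level was not tied to the population in every mouse, since mouse 3 had it slightly higher in SMP. The other most abundant genes differed little, with Eef1a1, a translation elongation factor, at 578753, 537505 and 511757 in MEP, against 566619, 530222 and 578585 in SMP (-0.04, adjusted p = 0.803).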
